A study of Mus musculus with 6 samples.

Results

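Fc receptors are the proteins through which immune cells bind antibodies, and the expression of 8 of their genes was examined in mouse bone marrow-derived macrophages (BMDMs) after co-culture with tumour cells. The genes were chosen by name: Fcgr1, Fcgr2b, Fcgr3, Fcgr4, Fcer1g, Fcgrt, Fcrls and Fcer2a, 8 of the 54532 genes of the expression table. All 8 were among the 13441 genes that reached at least 1 FPKM (reads scaled to gene length and to library size) in 3 or more libraries and were therefore tested. Per the study's methods, monocytes were isolated from the bone marrow of C57BL/6 mice aged 6 to 8 weeks, and they were collected after co-culture with ID8, an ovarian cancer line of mouse origin. For 3 libraries the ID8 cells had first been exposed to cisplatin at 40 µM, a DNA-crosslinking drug, and for the other 3 to phosphate-buffered saline (PBS). These groups are called cisplatin and PBS. It was the tumour cells that the labels describe as treated, and both groups held ID8 cells. The study describes its replicates as biological, but how the cells were parted before RNA extraction, and whether the libraries of a group came from separate mice or from separate cultures, is not given in the sources used here. The p-values measure the spread between these libraries.

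The receptors for IgG are of opposing kinds. Fcgr1, Fcgr3 and Fcgr4 encode activating receptors, which signal through the common γ chain encoded by Fcer1g, whose activation motif (ITAM) is phosphorylated by Src-family kinases and then recruits the kinase Syk. Fcgr2b encodes the inhibitory receptor, which carries an inhibitory motif in its own tail and recruits the lipid phosphatase SHIP-1. On macrophages the balance between the kinds sets the threshold for phagocytosis of antibody-coated cells. Fcgrt encodes the neonatal Fc receptor, which pairs with β2-microglobulin and returns IgG from endosomes to the surface. Fcer2a encodes the low-affinity IgE receptor CD23, a lectin best known from B cells, and Fcrls encodes an Fc receptor-like protein known as a marker of microglia.

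Sequences were examined first, because a gene's reads can be lent to a near-identical neighbour and because the control regions of these genes have been described in some detail. Fcgr2b (chromosome 1, 170958617 to 170976547) and Fcgr3 (chromosome 1, 171051174 to 171064935) share several stretches of sequence, of which the longest exact run, of 129 bases, lies within their coding sequence. It is shown in lower case throughout since every base is the same. It lies on the minus strand over 2 exons in each gene, at chr1:170966674-170968081 and chr1:171054167-171057792 of GRCm38. Reads that lie wholly within such runs cannot be assigned to one gene of this pair.
Fcgr2b and Fcgr3, shared coding run: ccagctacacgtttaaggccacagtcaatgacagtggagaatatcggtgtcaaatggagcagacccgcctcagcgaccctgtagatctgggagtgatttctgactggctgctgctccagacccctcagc
Of all 50-base windows of the Fcgr3 transcript, 12.8% (166 of 1298) were also found in Fcgr2b, in this run and in shorter ones, and they made up 4.75% of the Fcgr2b windows. No other pair among the 8 genes shared a 50-base window. Fcgr2b shared a further 6.61% of its windows, and Fcer2a 1.73%, with genes outside the 8.

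The regions before the start sites of Fcgr1 and Fcgr4 are shown because of these activating receptors the first passed the test below as deposited and the second did not, while both hold short sequence elements known from myeloid and interferon-responsive genes. The sequences are those of RefSeq on GRCm38.p6, 5′ to 3′ on the strand of the gene. Capitals mark matches to the gamma-activated site (GAS, TTCNNNGAA), the interferon-stimulated response element core (ISRE, GAAANNGAA) and the PU.1 core (GAGGAA, which reads TTCCTC on the other strand).
Fcgr1, chr3:96293970-96294219, minus strand: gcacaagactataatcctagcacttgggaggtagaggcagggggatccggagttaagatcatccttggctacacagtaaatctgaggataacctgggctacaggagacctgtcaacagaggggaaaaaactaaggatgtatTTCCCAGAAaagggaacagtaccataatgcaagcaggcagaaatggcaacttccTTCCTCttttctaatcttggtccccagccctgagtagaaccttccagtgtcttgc
Fcgr4, chr1:171018676-171018919, plus strand: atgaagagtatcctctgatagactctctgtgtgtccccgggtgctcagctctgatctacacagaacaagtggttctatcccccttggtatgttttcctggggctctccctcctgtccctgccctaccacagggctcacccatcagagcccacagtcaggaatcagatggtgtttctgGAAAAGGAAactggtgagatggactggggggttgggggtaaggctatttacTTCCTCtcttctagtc
In Fcgr1 the GAS match began 109 bases and the PU.1 match 55 bases before the RefSeq start, and in Fcgr4 the ISRE match began 73 bases and the PU.1 match 22 bases before it. None of these matches overlapped another. Over 32851 windows of 250 bases before RefSeq starts, searched on both strands, a GAS match was found in 7.02%, an ISRE match in 7.13% and a PU.1 match in 23.3%. The 8 genes had 11 such windows, of which 1 held a GAS match (Fcgr1), 1 an ISRE match (Fcgr4) and 5 a PU.1 match (Fcgr1, Fcgr4, Fcrls and 2 overlapping windows of Fcgr3). A match is a stretch of letters, and binding was not measured.

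As deposited, the Fc receptor genes did not move as a block. Fcgr1, Fcgr3, Fcrls and Fcer2a rose with cisplatin, Fcgrt fell, and Fcgr2b, Fcgr4 and Fcer1g did not pass the test (limma on log2(FPKM + 1), Benjamini-Hochberg adjusted p under 0.05 over all tested genes). Higher at this threshold were thus 4 of 8 genes, against 32.9% of all tested genes, and lower was 1 of 8, against 35.1%. Fcrls and Fcer2a reached 1 FPKM in 3 cisplatin libraries and 0 PBS libraries, so they entered the test through the group in which they are high, had to differ, and support nothing by being counted. The other 6 genes reached it in all 6 libraries. Genes that also changed by 1 or more on the log2 scale are termed called. By this rule 2 of the 8 were called higher (Fcrls and Fcer2a), against 4.67% of all tested genes, and 0 of the 8 called lower, against 11.3%. At an unadjusted p under 0.05, 1 of the 8 was lower (Fcgrt), and limma voom on recovered reads called 0 lower, against 13.9% of all tested genes. The libraries of the groups did not overlap in 4 genes that were higher, where 35.2% of all tested genes were of this kind, and in 1 gene that was lower, where 37.2% were. The median log2 fold change of the 8 genes was 0.39 as deposited but -0.49 when the libraries were scaled by pan-leukocyte genes, as described next, and that of all tested genes was -0.0011 and -0.74.

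These values are shares of all RNA in a library, and RNA of marker genes for several cell types differed between the groups. In bulk RNA, fewer cells of a type and less RNA per cell cannot be told apart. Of the ID8 and mesothelial markers, 7 of 9 were tested and all 7 were lower with cisplatin, their summed FPKM being 997 to 1074 with PBS and 177 to 191 with cisplatin. All 8 macrophage markers were tested and higher as deposited (median ratio of mean FPKM 1.91), and none was at 0 in a library. Their summed FPKM was 1620 to 1629 with PBS and 4160 to 4316 with cisplatin, most of it from Lyz2, which neutrophils also express, and without Lyz2 it was 456 to 473 and 749 to 764. On the scale described next, 3 of the 8 were higher and 2 lower by the adjusted p. Mertk, counted as higher on both scales, entered the test through the cisplatin libraries alone, so its part in these counts supports nothing. All 9 detected pan-leukocyte genes were higher too, by 1.60- to 2.20-fold in mean FPKM, with Evi2b at 0 in all 6 libraries. Each of the 8 genes is therefore given on a second scale as well, on which the libraries were brought to the same level of these 9 genes. That scaling moved the median log2 fold change of all tested genes to -0.74, with 4.90% of genes higher and 80.5% lower by the adjusted p. On it, 2 of the 8 Fc receptor genes were higher (Fcrls and Fcer2a, which entered the test through the cisplatin libraries alone), 5 were lower, and Fcgr3 passed in neither direction.

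**Figure D1:**
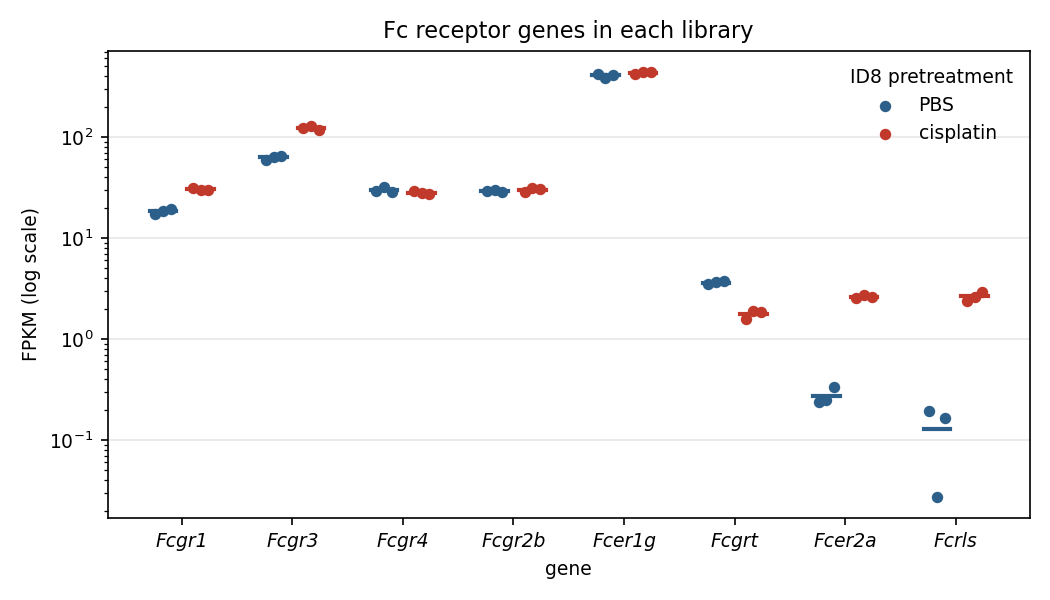
FPKM of the 8 Fc receptor genes (log axis) in each of 3 PBS (blue) and 3 cisplatin (red) libraries, with bars at the group means. The cisplatin points lie above all PBS points for Fcgr1, Fcgr3, Fcer2a and Fcrls and below them for Fcgrt, and they overlap for Fcgr4, Fcgr2b and Fcer1g. The values are as deposited. On the scale of pan-leukocyte genes the direction of Fcgr1 turned, to -0.17 against a median of -0.74 over all tested genes.

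Among the activating receptors, Fcgr3, which encodes the low-affinity receptor CD16, was the most abundant. Fcgr3 (ENSMUSG00000059498) was at 59.3, 63.5 and 65.2 FPKM in PBS replicates 1 to 3 and at 123, 129 and 116 FPKM in cisplatin replicates 1 to 3. Every cisplatin library was well above every PBS library. The log2 fold change of Fcgr3 was 0.96 (SE 0.053, 95% interval 0.83 to 1.09, limma, adjusted p = 6.22e-06), so that it lay just under the fold change threshold. Fcgr3 passed that threshold, and was called, with scaling by total recovered reads (1.04) and with limma voom on recovered reads (1.06). On the pan-leukocyte scale it was 0.074 (adjusted p = 0.27), against the median of -0.74 over all genes. In the annotation of the table the gene overlaps the microRNA gene Mir6546.

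Fcgr1 (ENSMUSG00000015947, chromosome 3, 96282909 to 96293969) encodes CD64, the high-affinity receptor for IgG. Its level was 17.5, 18.7 and 19.6 FPKM with PBS and 31.0, 30.0 and 30.2 FPKM with cisplatin. The groups did not overlap, and the cisplatin libraries were closely alike. Fcgr1 rose by 0.69 on the log2 scale as deposited (SE 0.048, limma, adjusted p = 1.95e-05). On the pan-leukocyte scale it was lower, at -0.17 (limma, adjusted p = 0.022), against the median of -0.74 over all genes.

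Fcgr4 (ENSMUSG00000059089, chromosome 1, 171018920 to 171029761), the third activating receptor and one that binds IgG2 subclasses, gave a different picture. It was at 28.9, 32.1 and 28.8 FPKM with PBS and at 29.4, 28.0 and 27.0 FPKM with cisplatin. The ranges overlapped, since cisplatin replicate 1 was above PBS replicates 1 and 3. The log2 fold change was -0.084 (SE 0.056, 95% interval -0.22 to 0.050, limma, adjusted p = 0.226) as deposited and -0.95 on the pan-leukocyte scale (adjusted p = 9.15e-06), below the median of all genes on that scale. The table lists a small nuclear RNA gene, Gm26110, inside Fcgr4, with 5 reads over the PBS libraries and 2 over the cisplatin libraries. Ratios of the other activating receptors to Fcgr4 were formed after the values had been seen. The ratio of Fcgr1 to Fcgr4 was 0.60, 0.58 and 0.68 with PBS and 1.05, 1.07 and 1.12 with cisplatin, 1.74-fold higher, and that of Fcgr3 to Fcgr4 was 2.08-fold higher (exact permutation test over libraries, two-sided, p = 0.1 each, the smallest possible).

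The inhibitory receptor gene Fcgr2b (ENSMUSG00000026656) did not pass the test as deposited. It stood at 29.1, 29.8 and 28.8 FPKM with PBS and at 28.5, 31.3 and 30.5 FPKM with cisplatin, and the lowest cisplatin library was under all PBS libraries. Its log2 fold change of 0.039 (SE 0.044, 95% interval -0.066 to 0.15, limma, adjusted p = 0.459) became -0.83 on the pan-leukocyte scale (adjusted p = 2.08e-06), against the median of -0.74 over all genes. It passed the test at 0.12 with scaling by total recovered reads (adjusted p = 0.0439) and at 0.13 with limma voom on recovered reads (adjusted p = 0.0232), settings under which the median of all tested genes was itself at 0.073 and 0.085. B cells also express Fcgr2b, and all 5 B cell markers were higher as deposited, with a summed FPKM of 205 to 211 with PBS and 460 to 469 with cisplatin. On the pan-leukocyte scale 4 of these markers were higher and 1 lower by the adjusted p. The part of B cells in the level of Fcgr2b was not tested. The table also lists an antisense gene, Gm38204, within Fcgr2b, and the use of strand in counting is not given.

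The common γ chain gene Fcer1g (ENSMUSG00000058715, chromosome 1, 171229572 to 171234365) was the most abundant of the 8 in every library. With PBS it was at 424, 381 and 416 FPKM and with cisplatin at 421, 439 and 440.5 FPKM. Cisplatin replicate 1 lay below PBS replicate 1, so the groups overlapped. The log2 fold change of Fcer1g was 0.093 (SE 0.048, 95% interval -0.021 to 0.21, limma, adjusted p = 0.126) as deposited and -0.80 on the pan-leukocyte scale (adjusted p = 7.26e-07), against the median of -0.74 over all genes. Its difference passed the test at 0.18 both with limma voom on recovered reads (adjusted p = 0.00174) and with scaling by total recovered reads (adjusted p = 0.0173), and these are the settings named for Fcgr2b that also moved the median of all tested genes upwards.

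**Figure D2:**
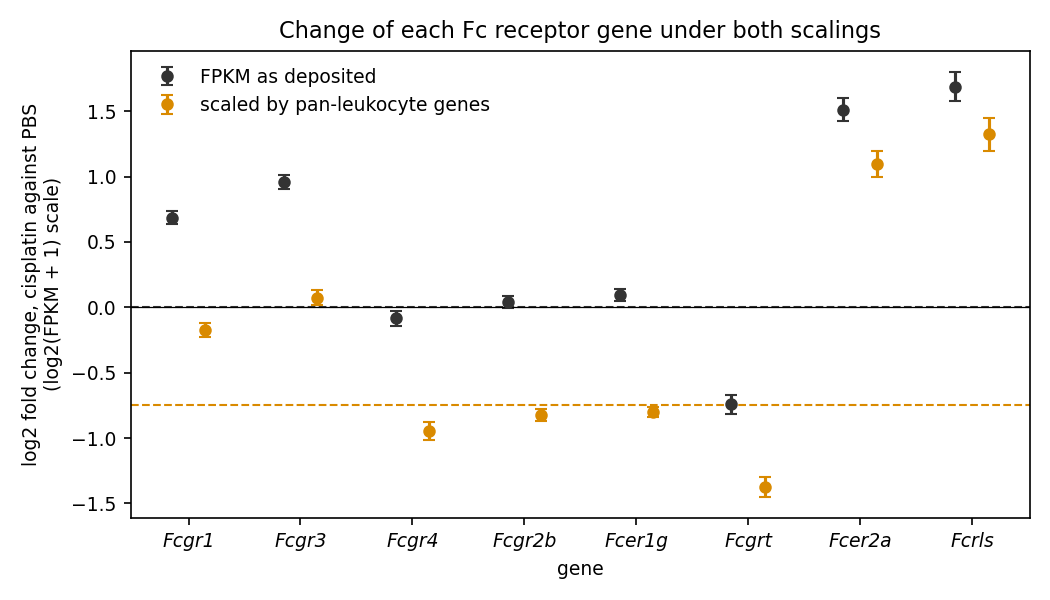
Log2 fold change (cisplatin against PBS, log2(FPKM + 1) scale, error bars 1 SE) of the 8 genes as deposited (black) and after scaling by 9 pan-leukocyte genes (orange), with dashed lines at the median of all tested genes. Fcrls and Fcer2a lie above 1 on both scales, Fcgr3 is near 0 on the second, and Fcgr1 turns from 0.69 to -0.17.

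Ratios between receptors within a library do not depend on how libraries are scaled, and they show the make-up of the IgG receptors directly. As deposited, the summed FPKM of the 4 IgG receptor genes was 140 ± 4.91 with PBS and 211 ± 7.30 with cisplatin (SD, n = 3 each). Unlike the ratios, this sum depends on how libraries are scaled. On the pan-leukocyte scale Fcgr1, Fcgr2b and Fcgr4 were lower and Fcgr3 passed in neither direction. Of this sum Fcgr3 made up 44.0%, 44.1% and 45.8% in the PBS libraries and 58.0%, 59.2% and 57.0% in the cisplatin libraries. The share of Fcgr3 was thus higher in every cisplatin library. The share of Fcgr2b was 20.8 ± 0.68% with PBS and 14.2 ± 0.74% with cisplatin, and that of Fcgr4 21.3 ± 1.04% and 13.3 ± 0.57% (SD, n = 3 each). Fcgr1 stayed the closest, at 13.2 ± 0.45% and 14.4 ± 0.57%. In all 4 genes the shares of the groups did not overlap (exact permutation test, two-sided, p = 0.1 for each), which is the smallest p that 3 libraries against 3 can give and cannot pass 0.05. For Fcgr1 the groups nearly touched, at 13.73% in PBS replicate 3 and 13.74% in cisplatin replicate 2.

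The ratio of the activating Fcgr3 to the inhibitory Fcgr2b was 2.04, 2.13 and 2.26 with PBS and 4.31, 4.13 and 3.82 with cisplatin. It was 1.90-fold higher with cisplatin (log2 difference 0.93, exact permutation test, two-sided, p = 0.1). The ratio of Fcgr1 to Fcgr2b was 0.60, 0.63 and 0.68 with PBS and 1.09, 0.96 and 0.99 with cisplatin, and was 1.59-fold higher (log2 difference 0.67, exact permutation test, p = 0.1). Fcgr4 came out otherwise. Its ratio to Fcgr2b lay between 0.99 and 1.08 with PBS and between 0.89 and 1.03 with cisplatin, where the groups overlapped through cisplatin replicate 1 alone (log2 difference -0.13, exact permutation test, p = 0.3). Without that library the groups were apart and the log2 difference was -0.20 (exact permutation test, p = 0.2). Fcer1g, measured against the sum of the 3 receptors that it serves, went the other way. With PBS there were 4.01, 3.33 and 3.66 FPKM of Fcer1g for each FPKM of Fcgr1, Fcgr3 and Fcgr4 together, and with cisplatin 2.30, 2.34 and 2.54, a log2 difference of -0.61 (exact permutation test, p = 0.1). Reads that Fcgr2b and Fcgr3 could exchange through their shared runs bear on all of these ratios and shares, since each holds Fcgr2b or Fcgr3, and their number was not measured.

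**Figure D3:**
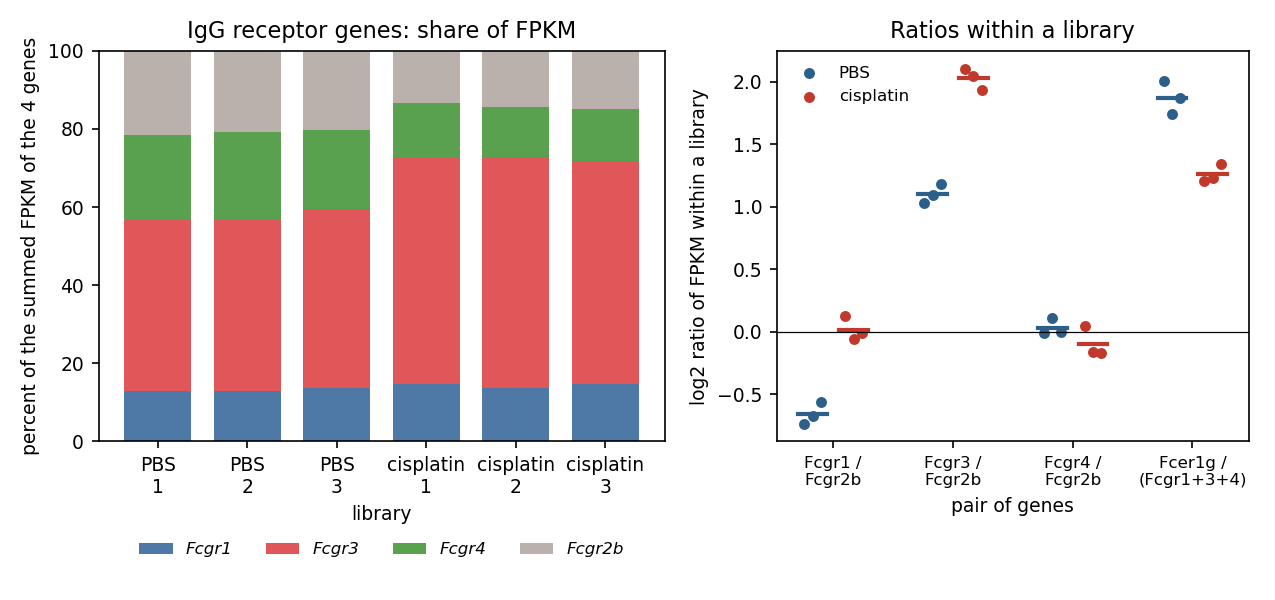
Left, share of each IgG receptor gene in the summed FPKM of the 4 (percent) in every library, and right, log2 ratio of FPKM within a library for 4 pairs, with bars at the group means. Fcgr3 takes 44.0% to 45.8% of the sum in the PBS libraries and 57.0% to 59.2% in the cisplatin libraries, and the Fcgr4 to Fcgr2b ratio is the pair in which the groups overlap, through cisplatin replicate 1.

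The remaining receptors stood at lower levels. Fcgrt (ENSMUSG00000003420, chromosome 7, 45092990 to 45103851), the neonatal Fc receptor gene, was at 3.52, 3.63 and 3.71 FPKM with PBS and at 1.57, 1.88 and 1.84 FPKM with cisplatin. No cisplatin library reached the level of a PBS library, with a ratio of mean FPKM of 0.487 that rested on 371 reads with PBS and 185 with cisplatin. Fcgrt fell by 0.74 on the log2 scale (SE 0.074, limma, adjusted p = 1.12e-04), and by 1.37 on the pan-leukocyte scale (adjusted p = 1.64e-06). B2m, which encodes the β2-microglobulin that Fcgrt needs and is named here for that role after its values were seen, was also lower, at 2257 ± 67.7 FPKM with PBS and 1374 ± 62.4 with cisplatin (SD, 3 libraries each, log2 fold change -0.72, limma, adjusted p = 1.25e-05). The ID8 and mesothelial markers were lower in the same libraries, and their part in the fall of Fcgrt was not tested. The table also lists the antisense gene Gm45669 over Fcgrt.

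Fcer2a (ENSMUSG00000005540, chromosome 8, 3681737 to 3694175), the CD23 gene, was close to the detection limit with PBS and measurable with cisplatin. It was at 0.238, 0.249 and 0.334 FPKM in the PBS libraries, which is 13, 12 and 16 reads, and at 2.53, 2.74 and 2.62 FPKM in the cisplatin libraries, which is 133, 139 and 134 reads. The ratio of the pooled rates was 9.67 (95% exact interval 7.01 to 13.7, for counting error only). Fcer2a was called, with a log2 fold change of 1.51 (SE 0.088, limma, adjusted p = 7.82e-06) that is damped by the pseudocount of 1, and it was also higher on the pan-leukocyte scale (1.09, adjusted p = 2.65e-05). The 5 B cell markers, listed because CD23 is known from B cells, had ratios of mean FPKM between 1.61 and 3.11 in the same libraries, and none of the 5 was at 0.

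Fcrls (ENSMUSG00000015852, chromosome 3, 87250758 to 87263738) showed the largest fold among the 8. In the PBS libraries it was at 0.194, 0.0275 and 0.166 FPKM, from 8, 1 and 6 reads, and in the cisplatin libraries at 2.37, 2.61 and 2.93 FPKM, from 94, 100 and 113 reads. The gene was thus nearly unread with PBS, and the groups were far apart. The ratio of the pooled rates was 19.99 (95% exact interval 11.9 to 36.2, counting error only), and the log2 fold change on the damped scale was 1.69 (SE 0.11, limma, adjusted p = 1.44e-05) as deposited and 1.32 on the pan-leukocyte scale (adjusted p = 3.35e-05).

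The order of the levels changed with these shifts. With PBS it ran from Fcer1g over Fcgr3, Fcgr4, Fcgr2b, Fcgr1, Fcgrt and Fcer2a to Fcrls, where the ranges of Fcgr4 and Fcgr2b overlapped and all other neighbours were apart. With cisplatin Fcgr1 moved up beside Fcgr2b and Fcgr4, whose ranges overlapped in turn at a mean of 30.4, 30.1 and 28.1 FPKM. Fcrls and Fcer2a, which overlapped each other at 2.64 and 2.63 FPKM, passed Fcgrt at 1.76 FPKM, the lowest of the 8.

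For each gene the 2 tested genes with the most similar profile over the 6 libraries were taken, by the root mean square distance between mean-centred log2(FPKM + 1) values. They were Atxn7 and Ddx27 for Fcgr1, Plekho1 and Gnpda1 for Fcgr3, Rdx and Rlim for Fcgr4, Ap2a1 and Fmnl3 for Fcgr2b, and Stk11 and Rps14 for Fcer1g, at distances between 0.012 and 0.036. For Fcgrt they were Ssbp2 and Anxa8 (0.024 each), and for Fcer2a Fabp5 and Kcnk12 (0.033 and 0.036). Likeness was not rare for most of them. Within a distance of 0.1 there were 1804 genes for Fcgr2b and 621 for Fcgr1, but 45 for Fcer2a and 11 for Fcrls. The nearest to Fcrls were C5ar1, the receptor for the complement fragment C5a (distance 0.064), and Cd177, a neutrophil surface gene (0.071), both far more abundant than Fcrls itself, at 88.9 and 85.5 FPKM with cisplatin. The likeness is one on the log2(FPKM + 1) scale, which damps low genes. In mean FPKM C5ar1 and Cd177 were 3.36- and 3.48-fold higher with cisplatin, and Fcrls 20.4-fold. Of the neighbours of Fcer2a, itself 9.62-fold higher, Fabp5 was 3.07-fold and Kcnk12 8.14-fold higher.

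Other Fc receptor and Fc receptor-like genes were taken as a list of 11, of which 8 were tested. By the adjusted p, 5 were higher and 2 lower as deposited, against 32.9% and 35.1% of all tested genes. On the pan-leukocyte scale 4 were higher and 4 lower, against 4.90% and 80.5%. The median log2 fold change of 0.84 became 0.029 there, where that of all tested genes was -0.74. Fcrlb, counted as lower, entered the test through the PBS libraries alone, so its fall supports nothing. Fcmr, the receptor for IgM, went from 21.5 ± 2.94 FPKM with PBS to 52.6 ± 3.93 with cisplatin (SD, 3 libraries each, log2 fold change 1.26, limma, adjusted p = 4.17e-05), and Fcrla, a relative that stays inside B cells, from 15.7 ± 0.86 to 34.6 ± 1.15 (1.09, adjusted p = 2.57e-06). Fcer1a and Ms4a2, the α and β chains that join Fcer1g in the high-affinity IgE receptor of mast cells and basophils, had log2 fold changes of 1.17 (adjusted p = 7.38e-04) and 1.16 (adjusted p = 2.52e-05) by limma. Both are also among the 6 mast cell and basophil markers, all of which were higher as deposited (summed FPKM 121 to 129 with PBS, 263 to 282 with cisplatin). By the adjusted p, 5 of these markers were higher and 1 lower on the pan-leukocyte scale. On the pan-leukocyte scale Fcmr, Fcrla, Fcer1a and Ms4a2 were at 0.39, 0.24, 0.51 and 0.37, all past the adjusted p but no longer called. The part of such cells in the values of Fcer1a, Ms4a2 and Fcer1g was not tested. The gene called lower was Trim21, the cytosolic antibody receptor, named after its values were seen, at 15.3 ± 0.34 FPKM with PBS and 6.89 ± 0.53 with cisplatin (SD, 3 libraries each, log2 fold change -1.05, limma, adjusted p = 6.60e-06).

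The ligands of the receptors are antibodies, and their heavy chain constant genes were read in these libraries too. Of 8 genes 6 were tested, 4 were higher by the adjusted p as deposited and 0 lower (0 also at an unadjusted p under 0.05 by limma and at an adjusted p by limma voom). Of all tested genes 32.9% were higher and 35.1% lower by the adjusted p. On the pan-leukocyte scale 1 was higher and 1 lower, against 4.90% and 80.5% of all tested genes. The median of 0.81 turned to -0.072 there, where that of all tested genes was -0.74. Ighg1 (0.235 ± 0.14 to 2.27 ± 0.75 FPKM, SD, n = 3 each) and Ighg2b (3.95 ± 0.81 to 9.69 ± 2.03) were called as deposited, with log2 fold changes of 1.39 (limma, adjusted p = 5.43e-04) and 1.11 (adjusted p = 9.04e-04). Ighg1 entered the test through the cisplatin libraries alone, like Fcrls and Fcer2a, so that its call supports nothing. On the pan-leukocyte scale it was at 1.003 (adjusted p = 0.00188), while Ighg2b did not pass the test, at 0.34 (adjusted p = 0.0907). The IgE gene Ighe, the ligand source for Fcer2a, was at 0 in the PBS libraries, had a mean of 0.0623 FPKM with cisplatin and was not tested. Genes of this family are similar in sequence and may share reads.

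A list of 13 genes held ITAM adaptors, receptors that pair with them and also B2m, the partner of Fcgrt described above, which is not of the ITAM kind. Of the 9 tested, 8 were higher and 1, B2m, lower by the adjusted p, against 32.9% and 35.1% of all tested genes. The median log2 fold change was 1.11 as deposited and 0.74 on the pan-leukocyte scale. There 6 were higher and 2 lower, against 4.90% and 80.5% of all tested genes. Trem2, counted as higher and in the medians, entered the test through the cisplatin libraries alone, so its rise supports nothing. Without B2m, a choice made after the data were seen, the medians over 8 genes were 1.29 and 0.76. The γ chain partners Clec4n, which encodes the fungal receptor Dectin-2, and Clec4d rose from 69.7 ± 4.06 to 369 ± 13.7 FPKM and from 98.4 ± 0.081 to 331 ± 8.15 FPKM (SD, n = 3 each). Their log2 fold changes were 2.39 (limma, adjusted p = 1.05e-07) and 1.74 (adjusted p = 6.94e-08), and on the pan-leukocyte scale 1.50 and 0.85. Lilra6 (log2 fold change 2.39, limma, adjusted p = 8.73e-07) and Pira2 (1.47, adjusted p = 6.28e-06), paired immunoglobulin-like receptors that are close relatives and may share reads, were called as well. On the pan-leukocyte scale Lilra6 was at 1.62 and Pira2 at 0.78. Clec4e, a further γ chain partner named after its values were seen, was at 0.40 as deposited (limma, adjusted p = 3.05e-04) and at -0.48 on the pan-leukocyte scale (adjusted p = 1.97e-04).

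Downstream of the receptors, 15 of 17 genes for kinases, adaptors and lipid enzymes rose and 1 fell by the adjusted p. Of all tested genes 32.9% rose and 35.1% fell. The median of the list was 0.70 as deposited, against -0.0011 for all tested genes. On the pan-leukocyte scale it turned to -0.18, above the -0.74 of all tested genes. There 3 were higher and 9 lower, against 4.90% and 80.5% of all tested genes. The kinase gene Btk rose from 13.9 ± 1.22 FPKM with PBS to 38.4 ± 1.39 with cisplatin (SD, 3 libraries each, log2 fold change 1.41, limma, adjusted p = 2.55e-06). Lat2, an adaptor, rose by 1.32 (adjusted p = 1.29e-06) and Plcg2, a phospholipase that acts after Syk, by 1.07 (adjusted p = 2.02e-06) on the log2 scale by limma. Btk, Lat2 and Plcg2 were also the 3 genes that were higher on the pan-leukocyte scale, at 0.56, 0.52 and 0.19. Syk, named after its values were seen, had a log2 fold change of 0.62 as deposited (limma, adjusted p = 5.66e-06) and -0.26 on the pan-leukocyte scale (adjusted p = 3.90e-04).

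Of 8 inhibitors, 4 rose and 3 fell by the adjusted p, against 32.9% and 35.1% of all tested genes. On the pan-leukocyte scale 0 were higher and 6 lower, against 4.90% and 80.5%. The median was 0.29 as deposited and -0.58 on the pan-leukocyte scale, where that of all tested genes was -0.74. The one called as deposited was Inppl1, which encodes the lipid phosphatase SHIP-2. Inppl1 fell from 32.6 ± 1.49 FPKM with PBS to 7.89 ± 0.38 with cisplatin (SD, 3 libraries each, log2 fold change -1.92, limma, adjusted p = 2.49e-07). Inpp5d, which encodes the SHIP-1 recruited by Fcgr2b and was picked with its values known, was higher as deposited (0.94, adjusted p = 1.39e-05 by limma) and was at 0.079 on the pan-leukocyte scale (adjusted p = 0.199).

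**Figure D4:**
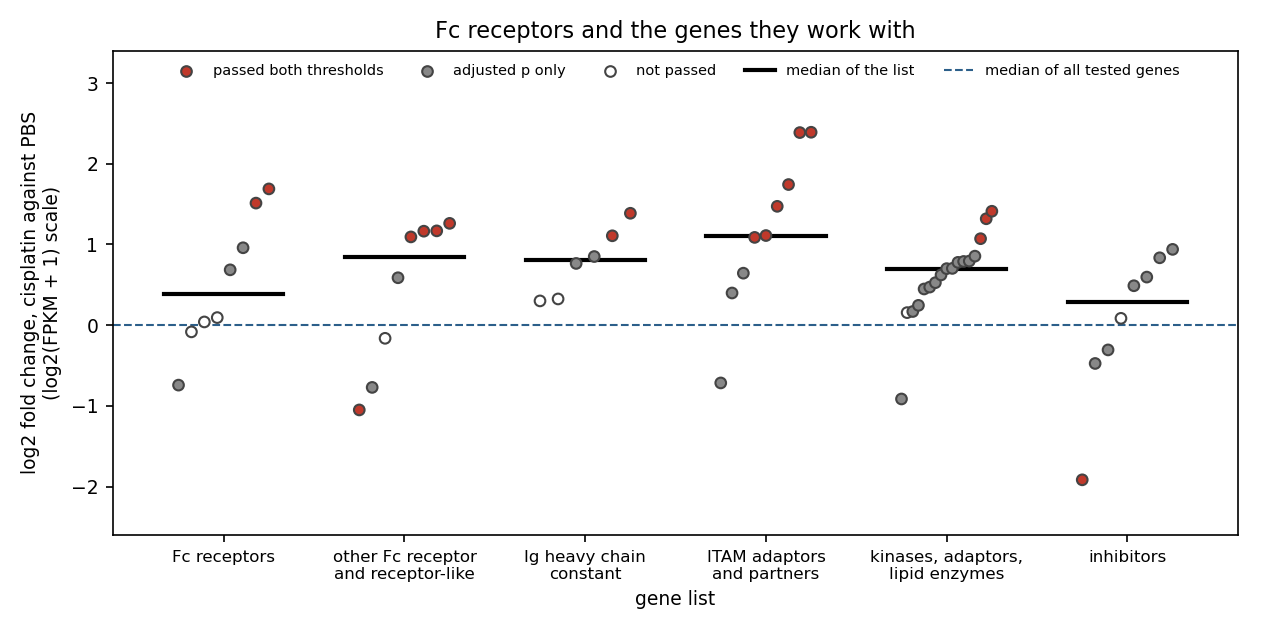
Log2 fold change (cisplatin against PBS, log2(FPKM + 1) scale, as deposited) of each tested gene in 6 lists, with red points past both thresholds, grey past the adjusted p alone and open points past neither. Thick bars mark list medians, from 0.29 for inhibitors to 1.11 for the ITAM list (B2m included), and the dashed line the median of all tested genes. On the pan-leukocyte scale the medians of the Fc receptor, Ig constant, kinase and inhibitor lists turn negative, where that of all tested genes is -0.74.

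Other cell types that carry Fc receptors were looked for by their markers. Of 6 neutrophil markers, a cell type rich in Fcgr3 and Fcgr4, 5 were higher as deposited (summed FPKM 4544 to 4697 with PBS, 8034 to 8301 with cisplatin). On the pan-leukocyte scale 3 of them were higher and 2 lower by the adjusted p. Of 6 dendritic cell markers 3 were tested, 2 higher and 1 lower (4.15 to 4.37 with PBS and 13.0 to 13.2 with cisplatin), with Cd209a at 0 in the PBS libraries. Flt3 entered the test through the cisplatin libraries alone and Zbtb46 through the PBS libraries alone. The direction of both was thus fixed by the filter and supports nothing. Natural killer and T cell markers were scarce, with 1 of 5 tested in each list and summed FPKM of 4.60 to 5.01 and 3.48 to 3.69 with PBS and of 5.56 to 6.45 and 5.17 to 6.13 with cisplatin. The part of these cells in the Fc receptor values was not tested.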

How the data were processed

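RNA-seq libraries of 6 co-cultures, 3 per group, were compared by the treatment in the labels. The authors deposited 1 table of FPKM per gene and library, and it held no columns of other samples (0). The submitters' processing notes name fastp, HISAT2 2.0.5, featureCounts 1.5.0-p3 and mm10, while the study's methods name LifeScope for alignment and counting. The use of strand is not given in the sources used here. Coordinates are those of the table, which match GENCODE M21 of GRCm38 for the 8 genes.

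FPKM times gene length gave whole multiples of a fixed step (100% of values under 200 reads, to within 0.05 reads), which recovered between 15776238 and 17924686 reads for each library. Intervals on reads cover counting error only. Genes that reached 1 FPKM in 3 or more libraries were tested on log2(FPKM + 1), which damps the change of low genes, with limma 3.58.1 under R 4.3.3 (lmFit with group as the only term, eBayes with a trend, Benjamini-Hochberg over all 13441 genes). A gene was called at an adjusted p under 0.05 where it also changed by 1 or more on the log2 scale, up or down. The study's methods set a fold change of 2 on counts, and the same size on log2(FPKM + 1) is stricter for low genes: Fcgrt, with a ratio of mean FPKM of 0.487, is not called here. Ratios were compared by exact permutation tests over libraries (two-sided). The procedure was tested on simulated data.

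The 8 genes and all lists were chosen with earlier results of these data known. Named are the 8 genes, in each list of family, ligand, partner, signalling and inhibitor genes the called ones (up to 4, the largest first, or the 1 largest change where none was called), and the 2 genes nearest in profile to each of the 8. A further list of downstream genes is not reported here. Any further gene named was picked with its values known. Marker lists (macrophage, pan-leukocyte, ID8 and mesothelial, B cell, natural killer, T cell, neutrophil, mast cell and basophil, dendritic cell) are given by counts and sums. Alternatives were no filter on low values, a minimum of 5 FPKM, a pseudocount of 0.1, median-of-ratios, TPM and total-read scaling, scaling by pan-leukocyte or 4 Y-linked genes, limma voom on recovered reads, no trend, a replicate block, the adjusted p alone and leaving out each library. List medians without each library were added after seeing the data.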

Additional observations from a re-analysis of the deposited data

How the results depend on the processing

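The change of Fcgrt, Fcrls and Fcer2a kept its direction and its side of the adjusted p threshold in each of the 16 alternatives that tested it. Fcrls and Fcer2a had to differ wherever the filter of 1 FPKM was used, so for them this supports nothing. Fcgrt ranged from -1.45 to -0.68, Fcrls from 1.28 to 4.58 and Fcer2a from 1.04 to 3.33, the last 2 being largest with limma voom on recovered reads. At a filter of 5 FPKM these 3 genes were not tested, so 0 Fc receptor genes were called higher in place of 2, and the adjusted p alone gave 4 higher and 1 lower. With total-read scaling and with limma voom 3 were called higher, Fcgr3 being the third, where 5.68% and 9.13% of all tested genes were. The number called lower, 0 as reported, was 1 with a pseudocount of 0.1 (Fcgrt), 1 with pan-leukocyte scaling and 2 with Y-linked scaling, where 14.7%, 33.2% and 38.5% of all tested genes were called lower.

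With scaling to pan-leukocyte genes or to the 4 Y-linked genes, the median over the tested genes was -0.74 or -0.83. The first and the second turned Fcgr1 to -0.17 and -0.27, Fcgr2b to -0.83 and -0.93, and Fcer1g to -0.80 and -0.90, and Fcgr3 was at -0.028 by Y-linked scaling. The median of the 8 genes turned from 0.39 to -0.49 and -0.59. List medians turned to -0.072 and -0.17 (Ig constant genes), -0.18 and -0.28 (kinases, adaptors and lipid enzymes) and -0.58 and -0.68 (inhibitors), and that of the other Fc receptor genes to -0.064 by Y-linked scaling. Fcgr4, near 0 as reported, was at 0.0024 with limma voom and at 0.00069 with total-read scaling. What caused these shifts was not tested.

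Leaving out each library in turn changed no call of the 8 genes. With the replicate number as a replicate block, 2 of them were called higher and 0 lower, as without it. Mean differences such as 0.93 for the log2 ratio of Fcgr3 to Fcgr2b are the same with the block by construction. Deviations from the group means, between libraries of the same number, correlated at -0.10, -0.086 and -0.024. They show no sign of pairing, but 3 libraries per group cannot settle whether the numbers pair the libraries. The 4 ratios kept their direction under the alternatives that were run, and their p could not pass 0.05 at this size. That of Fcgr4 to Fcgr2b ranged from -0.20, without cisplatin replicate 1, to -0.088. Depth limits Fcrls most, which rested on 15 reads over the PBS libraries.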

Other observations

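Ratios of Fc receptor genes to other genes of the same library, which no scaling of the libraries alters, were formed for pairs chosen after the values were seen, and 10 were computed, of which 2 stand with Fcgr4 above. Tyrobp encodes DAP12, the other ITAM adaptor of myeloid cells beside the γ chain of Fcer1g. For each FPKM of Tyrobp there were 3.52, 3.08 and 3.14 FPKM of Fcer1g with PBS and 1.64, 1.62 and 1.53 with cisplatin, a ratio 2.03-fold lower with cisplatin (exact permutation test, two-sided, p = 0.1, the smallest that 3 libraries against 3 allow). The ratio of Fcgr3 to Csf1r, the receptor gene for the macrophage growth factor, was 1.35, 1.42 and 1.50 with PBS and 1.49, 1.49 and 1.38 with cisplatin, and the groups overlapped (exact permutation test, p = 0.7). The ratio of Fcrls to Csf1r was 0.0044, 0.00062 and 0.0038 with PBS and 0.029, 0.030 and 0.035 with cisplatin, 14.3-fold higher (exact permutation test, p = 0.1). PBS replicate 2 rested on 1 Fcrls read, and without it the ratio was 7.58-fold higher. Without PBS replicate 1 it was 20.3-fold higher.

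The ratio of Fcer2a to the B cell gene Cd79a was 4.24-fold higher with cisplatin and that to Ms4a1 3.13-fold higher, with no overlap between groups in either ratio (exact permutation test, p = 0.1 each). Fcgr2b, which B cells also express, was 2.23-fold lower relative to Cd79a (exact permutation test, p = 0.1). The log2 ratio of Fcgrt to B2m differed by -0.33, and relative to the keratin gene Krt19 it was 5.59-fold higher with cisplatin (exact permutation test, p = 0.1 each). Adjusted over the 10 ratios by Benjamini-Hochberg, a p of 0.1 became 0.111, and no ratio passed 0.05.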
